A study of Mus musculus with 12 samples.

Results

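The genes described here encode subunits of respiratory complexes III and IV and of ATP synthase, together with cytochrome c, the carrier between both complexes. They were taken by name: a probe belonged if its gene symbol began with Uqcr, Cox5, Cox6, Cox7 or Atp5, or was Cyc1 or Cycs. The paralogous complex IV genes Cox6a1, Cox6a2, Cox7a1 and Cox7a2 were left out by the same rule. This gave 51 probes of 36 genes, out of 41174 probes and 19087 named genes in the table. Complex III held 9 of these genes (12 probes), cytochrome c 1 gene (3 probes), complex IV 9 genes (9 probes) and ATP synthase 17 genes (27 probes). All 36 genes and all 51 probes passed the filter on missing values.

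RNA came from ventricle muscle of C57B6 mice aged 7 months, 6 wild-type controls (WT, AMPK alpha2 +/+) and 6 mice without the alpha2 subunit of AMP-activated protein kinase (KO, AMPK alpha2 -/-), with no other treatment named. The labels give neither the place of the deletion nor a tissue restriction. Each heart was hybridised on a 2-colour array of its own against a commercial universal reference RNA from 11 mouse cell lines, and the labels call the hearts biological replicates. Heart RNA carried Cy3 in replicates 1 to 3 of each genotype and Cy5 in replicates 4 to 6, so dye orientation was balanced over genotype but could not be told apart from whatever else separated these replicates.

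AMP-activated protein kinase is an energy sensor of the cell, and alpha2 is its main catalytic subunit in heart muscle. Complex III passes electrons from ubiquinol to cytochrome c, and complex IV, cytochrome c oxidase, passes them on to oxygen, both pumping or releasing protons to the outer side of the inner mitochondrial membrane. ATP synthase lets the protons flow back through its membrane ring and uses the rotation to make ATP in its F1 head. Heart muscle depends on this route for nearly all of its ATP, and its cells are packed with mitochondria. Most subunits, and all of those measured here, are encoded in the nucleus and imported.

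Every value below is a log2 ratio of heart over reference RNA on the same array, so 0 means equal signal in the heart and in the cell lines. The base of the deposited logarithms is not stated and was taken as 2, on which the fold values rest. Such a ratio says how much stronger a transcript was in heart than in the reference. It does not rank transcripts by their amount, since the reference level differs from gene to gene. A gene's value on an array was taken from all of its probes. Differences are KO minus WT from limma with genotype and dye orientation as terms, with p-values adjusted by Benjamini-Hochberg over all 25821 features and a threshold of 0.05.

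The arrays were of unequal completeness. Between 0.3% and 41.7% of the probes of an array had no value, most in WT replicate 3 (39.2%) and KO replicate 4 (41.7%), and each of these lacked 19 of the 51 member probes. Checked against the tissue label, 14 of 14 cardiomyocyte markers were above 0 on every array that measured them, and 9 of 10 markers of dividing cells were measured and were below 0 on every one. Atrial markers (4 of 4 measured) were not uniform, with a summed log2 ratio, over those with a value, of 5.67 to 22.2 in WT and 3.64 to 22.1 in KO. Myl4 and Sln, genes of atrial muscle, read 5.64 and 3.79 in WT replicate 2 and 5.56 and 4.38 in KO replicate 1. They read 3.67 and 2.85 in WT replicate 6, 1.90 and 1.80 in KO replicate 5, and 2.16 and 1.54 in KO replicate 6. On the other 7 arrays Myl4 lay between -0.30 and 0.08, while Sln varied from -1.50 to 1.27. Myl7 read 7.19 in WT replicate 2 and 7.09, 4.10 and 4.96 in KO replicates 1, 5 and 6, with no value in WT replicate 6. Nppa did not follow these genes. It read 5.58 and 5.63 in WT replicates 2 and 6, and 5.08, 5.02 and 4.84 in KO replicates 1, 5 and 6. Its values over all arrays ran from 4.42 to 5.63. Of the fat markers (5 of 7 measured), Ucp1 and Adipoq stood at 3.81 and 3.93 in WT replicate 2. Lep, Cidea and Fabp4 read 0.07, 5.56 and 5.68 there, within their values on the other arrays. The summed ratio of the fat markers ran from 10.7 to 19.1 in WT and from 4.92 to 12.7 in KO over unequal numbers of values. Lung and liver markers (5 of 6 and 5 of 5 measured) had medians of 3.76 and 4.94 in KO replicate 6. On the other arrays the medians were -0.06 to 0.39 for lung and -0.18 to 0.87 for liver, the 0.87 from 1 gene in WT replicate 3. The lung gene Sftpc read 2.19 in WT replicate 3 and 1.29 in KO replicate 3. The targeted gene Prkaa2 was read by 1 probe, at 3.99 to 4.23 in WT (n = 6) and 3.58 to 4.27 in KO (n = 5). KO minus WT was -0.18 ± 0.10 (SE) for Prkaa2 (adjusted p = 0.937 in limma). The sources used here do not place the probe relative to the deletion, so it checks no label.

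The promoter sequences of 4 members are shown because they belong to the member with the highest ratio, cytochrome c, and to the 3 genes of the c ring of ATP synthase, which encode an identical mature protein. They are RefSeq sequences of build GRCm38.p6, the 120 bases before the annotated start, read 5′ to 3′ on the minus strand of the chromosome. Capitals mark a motif found on either strand. Cycs lies at chr6:50566570-50566689, Atp5g1 at chr11:96075632-96075751, Atp5g2 at chr15:102671048-102671167 and Atp5g3 at chr2:73911327-73911446.
Cycs: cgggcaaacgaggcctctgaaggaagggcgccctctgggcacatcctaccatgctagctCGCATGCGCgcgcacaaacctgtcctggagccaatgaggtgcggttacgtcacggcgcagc
Atp5g1: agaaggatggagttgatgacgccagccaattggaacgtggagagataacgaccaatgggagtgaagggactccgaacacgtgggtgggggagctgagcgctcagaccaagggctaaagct
Atp5g2: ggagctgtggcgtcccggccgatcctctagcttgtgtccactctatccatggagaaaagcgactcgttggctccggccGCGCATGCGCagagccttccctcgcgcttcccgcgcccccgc
Atp5g3: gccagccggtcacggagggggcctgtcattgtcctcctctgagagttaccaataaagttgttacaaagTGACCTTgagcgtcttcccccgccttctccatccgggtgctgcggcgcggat

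Cycs held the letters GCGCATGCG, part of the recognition sequence of nuclear respiratory factor 1 (NRF1), on the opposite strand, with the first base 61 bases before the start. In Atp5g2 these letters occurred on both strands as overlapping matches that began 42 and 41 bases before the start. Atp5g3 held AAGGTCA, a core site of estrogen-related receptors (ERR), on the opposite strand and 52 bases before the start. Atp5g1 held none of the 4 motifs searched in this window. RefSeq promoters, which reach from upstream of the start to a little past it, were held for 29 of the 36 genes (32 promoters). Among these, the NRF1 letters occurred in 6 genes (Atp5g2, Atp5k, Atp5l, Cycs, Uqcr11 and Uqcrc1), which is 18.8% of the member promoters against 1.75% of all 32851 promoters. The ETS letters CCGGAAG occurred in 9 genes, 28.1% against 8.86%. The letters AAGATGGC of YY1 occurred in 3 genes, 9.38% against 2.75%, and AAGGTCA in 4 genes, 12.5% against 4.72%. Matches of different motifs could share bases, and none was called a binding site. The 4 letter forms were picked from 8 after their counts were seen. The unused forms occurred in 21.9% against 4.603% (NRF1), 9.38% against 3.89% (ETS), 6.25% against 1.403% (YY1) and 3.13% against 1.28% (ERR).

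Nearly all transcripts of these complexes gave a stronger signal in ventricle than in the reference cell lines. On every array that measured them, 35 of the 36 genes were above 0. The mean ratio was above 1 in 33 genes, above 2 in 28 and above 3 in 12, and the median over the genes was 2.61, or 6.11-fold. The exception was Cox7b2, an isoform known from testis. By complex the median ratio was 2.70 for complex III, 4.02 for cytochrome c, 2.58 for complex IV and 2.38 for ATP synthase.

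**Figure D1:**
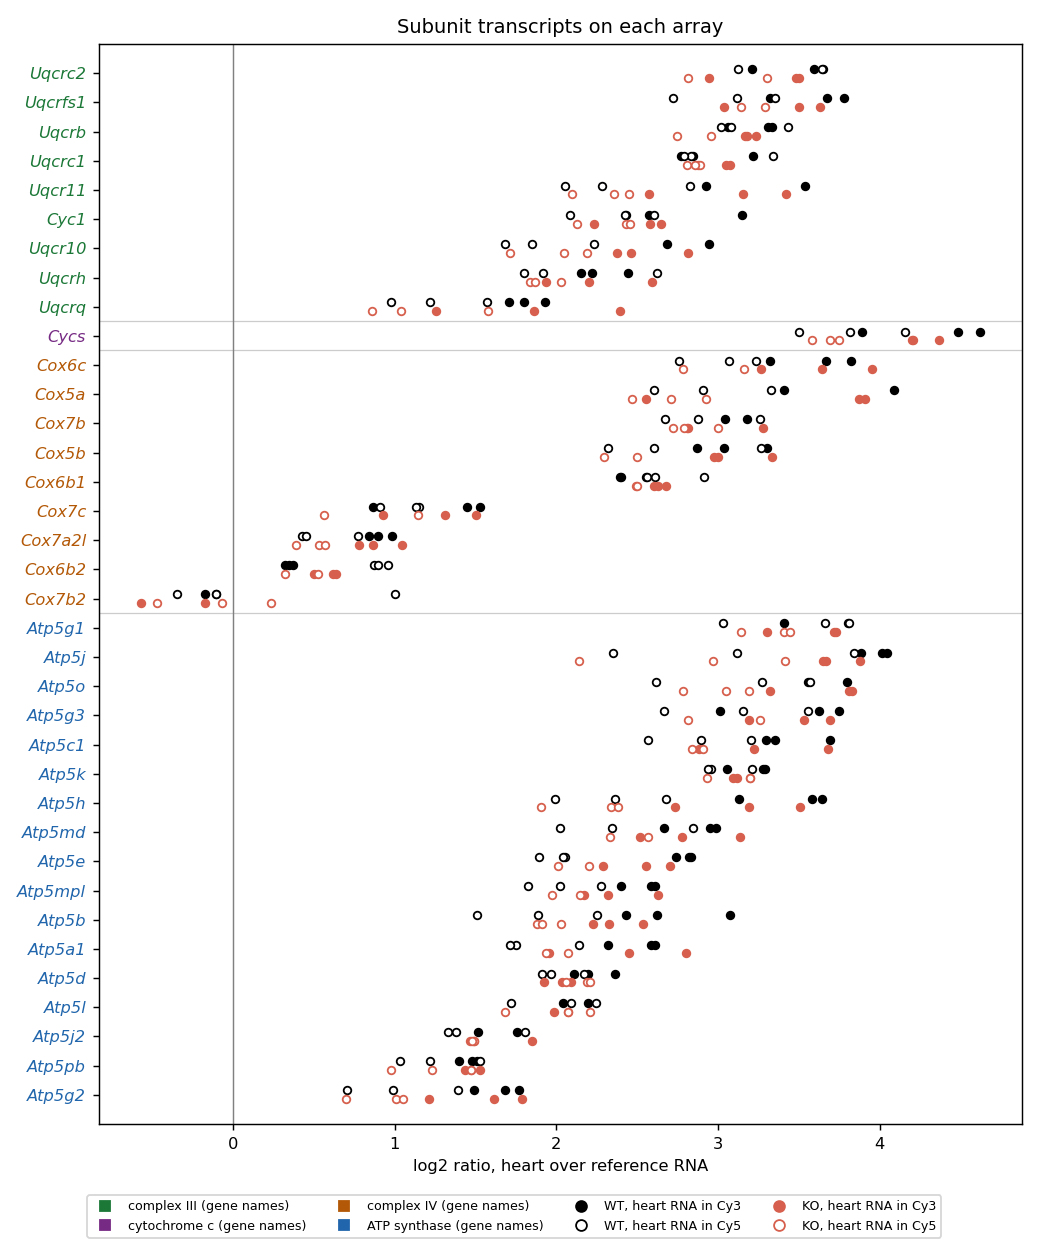
Log2 ratio of heart over reference RNA (x axis) for the 36 genes (y axis, grouped and coloured by complex, sorted by mean ratio), with 1 point per array. Black points are WT and red points KO, filled with heart RNA in Cy3 and open in Cy5. The WT and KO points overlap for every gene, and the mean of the open points lies left of that of the filled ones for 33 of the 36 genes in the fitted dye term.

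Between the genotypes, 0 of the 36 genes passed the test in limma, 0 had an unadjusted p under 0.05, and 0 had groups that did not overlap. Of all features, 0.00387% passed (1 of 25821), 5.33% had an unadjusted p under 0.05 and 0.465% had groups that did not overlap. The smallest unadjusted p among the members was 0.152, and their adjusted p ran from 0.942 to 0.999. The differences were small and mostly negative: 34 genes lay below WT in KO and 2 above, where 50.3% of all features lay below. Their median was -0.10, against -0.001 for all features and 0.01 for the 694 features with a mean ratio of 2 to 4. The median standard error of a member was 0.15, larger than that median. The genes were read from the same 12 arrays and moved together on them, as described below, so the 34 are not independent observations.

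The 95% confidence intervals of all 36 differences included 0, and 30 lay wholly within 0.5 of 0 on the log2 scale. The lowest bound of any member was -0.80 (Cox5a) and the highest was 0.37 (Atp5g3). The medians of the interval bounds were -0.40 and 0.23. Whole ventricle was measured, so a lower ratio from fewer cardiomyocytes and from less RNA per cardiomyocyte cannot be told apart.

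**Figure D2:**
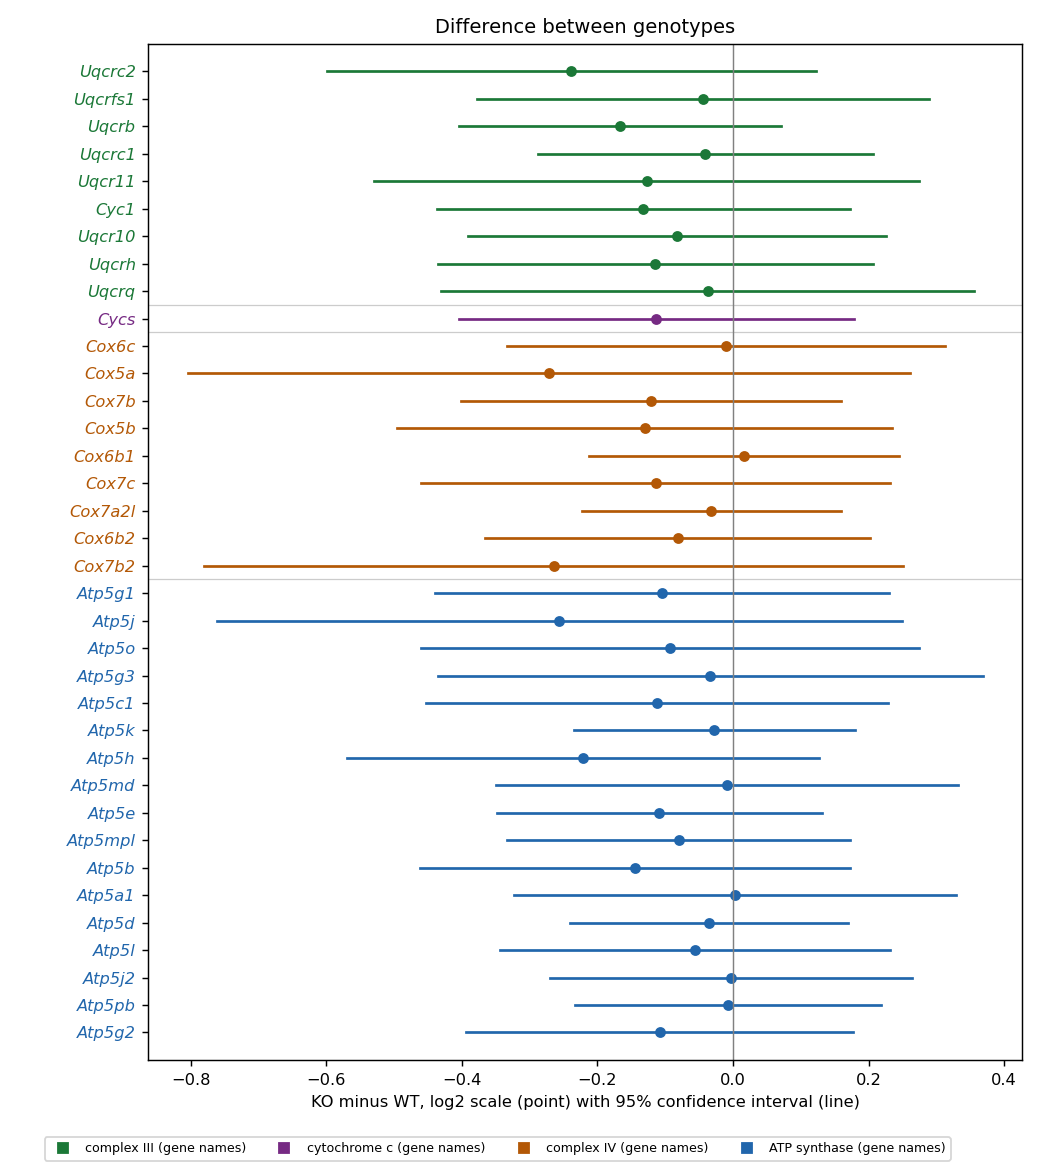
Difference between KO and WT on the log2 scale (x axis) for each gene (y axis, coloured by complex), with points for the estimate and lines for the 95% confidence interval. Points of 34 of 36 genes lie left of 0, and every line crosses 0.

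In complex III, all 9 genes lay below WT, with a median of -0.11 and a range from -0.24 (Uqcrc2) to -0.04 (Uqcrq). None passed the test, and groups overlapped for each. Uqcrc2 and Uqcrc1, the core proteins of the matrix side, gave differences of -0.24 ± 0.16 (SE) and -0.04 ± 0.11. Uqcrc2 (3.33, 10 arrays) and Uqcrfs1 (3.32, 11 arrays) had nearly equal mean ratios, the highest of the complex, and their order is not settled because Uqcrc2 also lacks WT replicate 6. For Uqcrc2 the WT values were 3.13, 3.21, 3.60, 3.64 and 3.65 (n = 5). The KO values were 2.81, 2.94, 3.30, 3.48 and 3.50 (n = 5). The lowest 2 KO hearts lay below each of the 5 measured WT hearts, while the other 3 fell inside their range (limma adjusted p = 0.942). WT replicate 6, without a value here, was low for the complex III genes it measured (8 of 8 below the WT mean of its dye).

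Among the redox subunits of complex III, cytochrome c1 (Cyc1), which hands electrons to cytochrome c, had WT ratios of 2.09 to 3.14 (median 2.50, n = 6). In KO they were 2.13 to 2.64 (median 2.44, n = 6), and the difference was -0.13 ± 0.14 (SE, limma adjusted p = 0.954). The KO range fell wholly within the WT range. Uqcrfs1, the Rieske iron-sulfur protein, had a mean ratio of 3.32 and a difference of -0.04 ± 0.15. Uqcrb, a small subunit beside the ubiquinone site, had the smallest unadjusted p of all members (0.152). Its WT ratios were 3.02 to 3.43 (median 3.19, n = 6) and its KO ratios 2.75, 2.96, 3.17, 3.18 and 3.23 (n = 5), a difference of -0.17 ± 0.11 (SE, limma adjusted p = 0.942). Its lowest 2 KO hearts lay below the WT range and no KO heart lay above it.

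The other small subunits of complex III differed by -0.13 (Uqcr11), -0.11 (the hinge protein Uqcrh), -0.08 (Uqcr10) and -0.04 (Uqcrq), with standard errors of 0.14 to 0.18. Uqcrh lies on chromosome 4 like the targeted gene Prkaa2, 86 measured genes apart. Uqcrq had the lowest mean ratio of the complex, 1.52, with WT ratios of 0.98 to 1.93 (median 1.64, n = 6) and KO ratios of 0.86 to 2.39 (median 1.42, n = 6). Its difference was -0.04 ± 0.18 (limma adjusted p = 0.993), and its groups overlapped. Its probes disagreed. A probe to a RefSeq transcript averaged 3.12 with WT and KO ratios from 2.09 to 4.06, and a probe to a cDNA clone averaged -0.16 with ratios from -0.46 to 0.24. Their differences were -0.26 ± 0.22 and 0.04 ± 0.15 (SE).

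Cytochrome c had the highest mean ratio of all members, 4.02, or 16.2-fold over the reference. Cycs is the form of all body cells. Its WT ratios were 3.50 to 4.62 (median 4.02, n = 6). Its KO ratios were 3.58 to 4.37 (median 3.97, n = 6), a difference of -0.11 ± 0.14 (SE, limma adjusted p = 0.960). All KO values lay inside the WT range. With the plain mean over probes the difference was 0.01. Its 3 probes, all to the same RefSeq transcript, averaged 3.30, 4.24 and 4.42, and differed between the genotypes by -0.13, -0.05 and 0.01.

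In complex IV, 8 of 9 genes lay below WT, with a median of -0.11 and a range from -0.27 (Cox5a) to 0.02 (Cox6b1). None passed the test. Cox5a, a subunit of the matrix side, had the largest difference of all members in size, -0.27 ± 0.24 (SE, limma adjusted p = 0.952), and also the widest interval. Without KO replicate 1 it was -0.09, and without WT replicate 1 it was -0.15. Its WT ratios were 2.61, 2.91, 3.33, 3.41 and 4.09 (n = 5) and its KO ratios ran from 2.47 to 3.91 (median 2.82, n = 6). KO replicates 2 and 3 stood at 3.91 and 3.87, and the other 4 KO hearts at 2.47 to 2.93. Cox5b, the zinc-binding subunit of the matrix side, differed by -0.13 ± 0.17.

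Within isoform sets of complex IV, the ratios to the reference differed. Cox6b1, the somatic form of a subunit on the outer side that binds near cytochrome c, had WT ratios of 2.39 to 2.91 (median 2.56, n = 6) and KO ratios of 2.49, 2.50, 2.60, 2.63 and 2.68 (n = 5). Its difference of 0.02 ± 0.10 (SE, limma adjusted p = 0.994) was the highest of the members. Cox6b2, the form known from testis, had a mean ratio of 0.58, with WT ratios of 0.32 to 0.96 (median 0.62, n = 6) and KO ratios of 0.32, 0.50, 0.53, 0.62 and 0.64 (n = 5). The groups overlapped, with WT values in separate clusters that followed the dye. Its difference was -0.08 ± 0.13 (limma adjusted p = 0.973).

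Cox7b, a small membrane subunit, had WT ratios of 2.67, 2.87, 3.04, 3.18 and 3.26 (n = 5) and KO ratios of 2.72 to 3.28 (median 2.81, n = 6). Its difference was -0.12 ± 0.13 (SE, limma adjusted p = 0.954), and the ranges nearly coincided. Cox7b2, its form known from testis, averaged -0.08, the lowest of the members. Its WT ratios were -0.35, -0.17, -0.10, -0.10 and 1.00 (n = 5) and its KO ratios -0.57, -0.47, -0.17, -0.07 and 0.23 (n = 5). The difference was -0.26 ± 0.23 (SE, limma adjusted p = 0.952). The WT heart at 1.00, replicate 5, stood apart from the others, and without it the difference was -0.04.

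Cox6c, a membrane subunit, had the highest mean ratio of complex IV, 3.34, or 10.1-fold. Cox5a averaged 3.16, and their order is not settled because Cox6c lacks KO replicate 4 and Cox5a lacks WT replicate 3. For Cox6c the WT ratios were 2.76 to 3.82 (median 3.28, n = 6). Its KO ratios were 2.79, 3.16, 3.27, 3.64 and 3.96 (n = 5). Its difference was -0.01 ± 0.15 (SE, limma adjusted p = 0.996). Its groups covered nearly the same range. Cox7a2l, a relative of the Cox7a subunits, is described as an assembly factor for supercomplexes of complexes III and IV. Whether the form carried by these mice acts so was not examined. Its WT ratios were 0.43 to 0.98 (median 0.81, n = 6) and its KO ratios 0.39 to 1.04 (median 0.67, n = 6). Its difference was -0.03 ± 0.09 (SE, limma adjusted p = 0.989), with an interval of -0.22 to 0.16. Cox7c, another membrane subunit, averaged 1.14 and differed by -0.11 ± 0.16.

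In ATP synthase, 16 of 17 genes lay below WT, with a median of -0.08 and a range from -0.26 (Atp5j) to 0.00 (Atp5a1). None passed the test. By part of the enzyme the median difference was -0.11 in the F1 head (4 of 5 genes below), -0.10 in the c ring (3 of 3), -0.16 in the peripheral stalk (4 of 4) and -0.03 among the small membrane subunits (5 of 5). The median ratios to the reference were 2.22, 3.30, 3.07 and 2.27 in the same order. These parts rest on partly different arrays. KO replicate 4, low for the members as a set, had values for all 4 genes of the peripheral stalk. It had none for Atp5a1, Atp5c1, Atp5e, Atp5g3, Atp5k, Atp5md and Atp5mpl of the other parts.

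In the F1 head, the catalytic beta subunit Atp5b had WT ratios of 1.51 to 3.07 (median 2.34, n = 6) and KO ratios of 1.88 to 2.54 (median 2.13, n = 6). Its difference was -0.14 ± 0.15 (SE, limma adjusted p = 0.952), and the KO range lay within the WT range. The alpha subunit Atp5a1, its partner in the head, had WT ratios of 1.72 to 2.61 (median 2.23, n = 6) and KO ratios of 1.94, 1.96, 2.07, 2.45 and 2.80 (n = 5). Its difference of 0.00 ± 0.15 (limma adjusted p = 0.999) joined 3 probes that averaged 3.37, 2.72 and 0.55 and differed by 0.05, -0.18 and 0.14. The rotor subunits gamma (Atp5c1), delta (Atp5d) and epsilon (Atp5e) differed by -0.11, -0.04 and -0.11, with standard errors of 0.10 to 0.16.

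The 3 genes of the c ring, the rotor through which protons pass, had unequal ratios. Atp5g1 had the highest ratio of ATP synthase, 3.50 (11.3-fold), Atp5g3 followed with 3.30 (9.81-fold), and Atp5g2 had the lowest of the enzyme, 1.28 (2.43-fold). Atp5g1 and Atp5g3 overlapped in their values, while Atp5g2 lay below both on every array that measured them. For Atp5g1 the WT ratios were 3.03, 3.41, 3.66, 3.80 and 3.81 (n = 5) and the KO ratios 3.14 to 3.73 (median 3.43, n = 6). For Atp5g3 they were 2.66 to 3.75 in WT (median 3.36, n = 6) and 2.81, 3.19, 3.26, 3.53 and 3.70 in KO (n = 5). For Atp5g2 they were 0.70 to 1.77 in WT (median 1.44, n = 6) and 0.70 to 1.79 in KO (median 1.13, n = 6). Differences were -0.10 ± 0.15 (Atp5g1), -0.03 ± 0.18 (Atp5g3) and -0.11 ± 0.13 (Atp5g2), with limma adjusted p of 0.970, 0.993 and 0.960, and the groups of all 3 genes overlapped. The 2 probes of Atp5g2, both to 1 RefSeq transcript, averaged 2.09 and 0.44. Each lay below both other genes on every shared array, and the size of the gap varied with the probe.

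The peripheral stalk holds the F1 head still against the turning rotor. Atp5h, its subunit d, had WT ratios of 1.99 to 3.64 (median 2.90, n = 6) and KO ratios of 1.90 to 3.51 (median 2.56, n = 6). Its difference was -0.22 ± 0.16 (SE, limma adjusted p = 0.942), the smallest p of the enzyme. Coupling factor 6 (Atp5j) had WT ratios of 2.35 to 4.04 (median 3.87, n = 6) and KO ratios of 2.14 to 3.88 (median 3.53, n = 6), a difference of -0.26 ± 0.23 (limma adjusted p = 0.952). For both genes, each group spanned more than 1 log2 unit, and the genotypes overlapped over most of it. Atp5o, the oligomycin sensitivity protein that caps the head, differed by -0.09 ± 0.17, and subunit b (Atp5pb) by -0.01 ± 0.10 (limma adjusted p = 0.996). Atp5pb had WT ratios of 1.03 to 1.53 (median 1.44, n = 6) and KO ratios of 0.98 to 1.53 (median 1.46, n = 6), from 4 probes that averaged 2.24, 2.09, 0.78 and 0.32.

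Of the small membrane subunits, Atp5j2 (subunit f) had WT ratios of 1.33, 1.38, 1.51, 1.76 and 1.80 (n = 5) and KO ratios of 1.46, 1.48, 1.49, 1.49 and 1.85 (n = 5). Its difference was 0.00 ± 0.12 in size, just below 0 (limma adjusted p = 0.999), and joined a probe to a RefSeq transcript at 3.08 with a cDNA clone probe at 0.03. These gave -0.25 ± 0.15 and 0.25 ± 0.21 (SE), so their opposite signs cancelled in the gene's value. Atp5k and Atp5l, subunits e and g, which help join the enzyme into dimers, differed by -0.03 and -0.06. Atp5md and Atp5mpl, further small proteins of the membrane part, differed by -0.01 and -0.08.

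Probes of the same gene often gave unequal ratios. Of the 51 probes, 45 were annotated to a RefSeq transcript and 6 to a cDNA clone only. The clone probes had a median ratio of 0.44 (-0.16 to 2.09) and the transcript probes one of 2.72 (-0.08 to 4.42). Of the transcript probes 41 lay below WT, and of the clone probes 1 did. Singly, 0 of the 51 probes passed the limma test or had an unadjusted p under 0.05. Among the 10 genes with several probes, the sign of the difference varied within 6 and the mean ratio by more than 1 within 6. With transcript probes alone the median difference was -0.11, with 35 of 36 genes below WT.

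The members moved together from array to array within each genotype. Each array was set against the mean of the WT arrays of the same dye orientation, gene by gene, and the median of these deviations was taken. In WT replicate 5 the median over the members was 0.31, with 35 of 36 genes above that mean. In WT replicate 6 it was -0.23, with 33 of 35 genes below. In KO replicate 1 it was -0.34 (32 of 35 below) and in KO replicate 4 -0.25 (20 of 21 below), while KO replicates 2 and 6 lay at 0.08 and 0.03. WT arrays thus ran from -0.23 to 0.31 and KO arrays from -0.34 to 0.08, with a wide overlap. Each WT array was part of the mean it was set against, while no KO array was. This draws the WT deviations toward 0, so the spreads of the genotypes are not like for like.

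The cardiomyocyte markers had medians of -0.18 to 0.16 in WT and -0.31 to 0.09 in KO by the same measure. KO replicate 1 was lowest for these markers (-0.31) as for the members, and it was among the highest for atrial markers. In WT replicate 5 the markers stood at 0.02 while the members stood at 0.31. Without WT replicate 2 and KO replicates 1 and 6 together, the members' median difference was -0.11, with 33 of 36 genes below WT. Without the 5 arrays highest in Myl4 and Sln, a choice made after seeing the data, it was -0.13, with 88.9% of genes below.

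**Figure D3:**
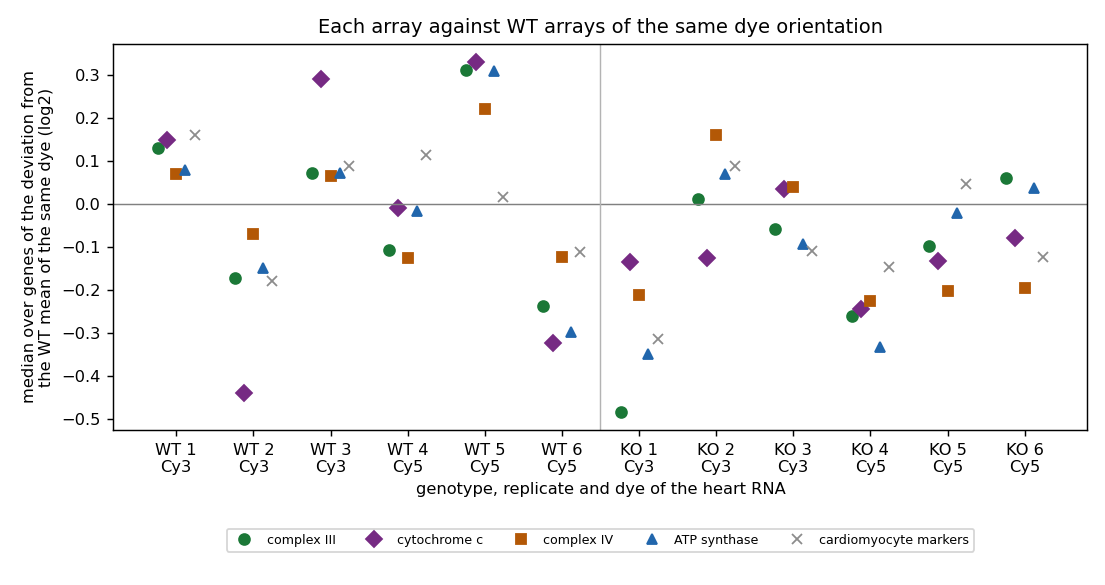
Median over genes of the deviation from the WT mean of the same dye orientation, on the log2 scale (y axis), for each array (x axis, with genotype, replicate and dye of the heart RNA). Symbols are complex III, cytochrome c (1 gene), complex IV, ATP synthase and 14 cardiomyocyte markers. Complex III, complex IV and ATP synthase are each highest in WT replicate 5. Complex III and ATP synthase lie below -0.2 in WT replicate 6 and KO replicates 1 and 4, and in KO replicate 6 complex IV lies apart from them.

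The size of this shift changed with single hearts. Without WT replicate 5 the members' median difference was -0.02 and 61.1% of the genes lay below WT, and it was -0.02 in complex III, -0.04 in complex IV and -0.02 in ATP synthase. Without KO replicate 1 it was -0.03, and without WT replicate 1 it was -0.05. Without KO replicate 2 it was -0.13, and without WT replicate 2 or 6 it was -0.14 in each case. Quantile normalization gave -0.18 with all 36 genes below. In none of these settings did a member pass, and the smallest adjusted p of any member over the 26 alternatives was 0.852. The sign of the difference was kept by 11 of the 36 genes in every alternative that fitted them. Among these were Uqcrc2, Uqcrb and Cox5a, fitted in 25 of the 26 alternatives, and Atp5h and Atp5j, fitted in all 26.

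**Figure D4:**
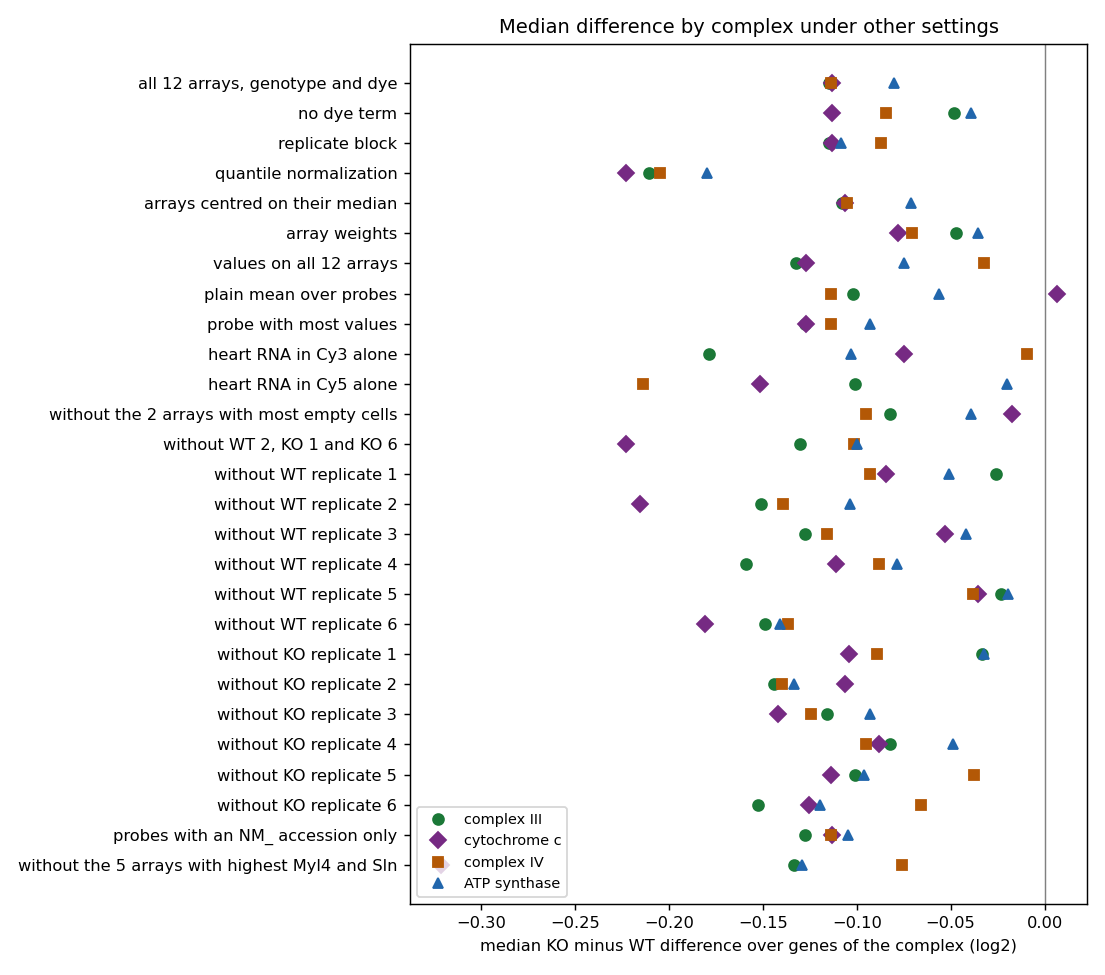
Median over genes of the KO minus WT difference on the log2 scale (x axis) for each complex (symbols; cytochrome c is 1 gene) in the fit of all 12 arrays and under each of 26 other settings (y axis). Medians move toward 0 without WT replicate 5 or KO replicate 1 and away from 0 with quantile normalization. Cytochrome c lies above 0 with the plain mean over probes.

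Within each dye orientation, with at most 3 hearts per genotype, the members' median difference was -0.08 with heart RNA in Cy3 and -0.09 in Cy5, and 27 of 36 genes lay below WT in each. WT replicate 3 (Cy3) held values for 27 of the 36 genes. KO replicate 4 (Cy5) held them for 21, among them 4 of 9 in complex IV and 10 of 17 in ATP synthase. Many of these differences thus rest on 2 hearts in a group. The complexes were less even. Complex III gave -0.18 in Cy3 and -0.10 in Cy5, and complex IV -0.01 (5 of 9 genes below) and -0.21 (9 of 9). ATP synthase gave -0.10 (14 of 17) and -0.02 (10 of 17), and its F1 head -0.21 (5 of 5) and 0.11 (1 of 5). The 694 features with a mean ratio of 2 to 4 had medians of 0.08 in Cy3 (253 below) and -0.07 in Cy5 (448 below). The change of the difference with dye passed for 0 of the 36 genes in limma, and for 0.0% of all features. Among the members 1 had an unadjusted p under 0.05, against 4.81% of all features. It was Cox6b2, with an interaction of -0.73 ± 0.16 (SE, limma adjusted p = 0.935). In Cy3 its 3 KO hearts (0.50, 0.62 and 0.64) lay above its 3 WT hearts (0.32, 0.34 and 0.37), and in Cy5 its 2 measured KO hearts (0.32 and 0.53) lay below the 3 WT hearts (0.87, 0.89 and 0.96).

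More members passed for dye orientation than for genotype. In the dye term of the same fit 10 of 36 genes passed, all with a lower ratio when heart RNA carried Cy5. Of all features 5.71% passed in either direction and 3.39% were lower in Cy5. Among the 694 features with a mean ratio of 2 to 4, 73 were lower in Cy5 and 5 higher, and the median dye term was -0.14. The members' median was -0.38, and 33 of 36 lay below 0. Atp5h had the largest term, -1.02 ± 0.16 (SE, limma adjusted p = 0.00512), from a mean of 3.30 in Cy3 and 2.28 in Cy5.

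The genes that were lower in Cy5 came from every complex. They were Uqcr10 (-0.71) and Uqcr11 (-0.79) of complex III, Cycs (-0.55), Cox6c (-0.61) and Cox7a2l (-0.38) of complex IV, and Atp5b (-0.62), Atp5e (-0.63), Atp5g2 (-0.62), Atp5h and Atp5j (-0.88) of ATP synthase. The number was not stable: it was 2 without WT replicate 1 and 15 without KO replicate 1. Orientation is the same split as replicates 1 to 3 against 4 to 6, so dye and any other difference between these sets cannot be told apart.

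**Figure D5:**
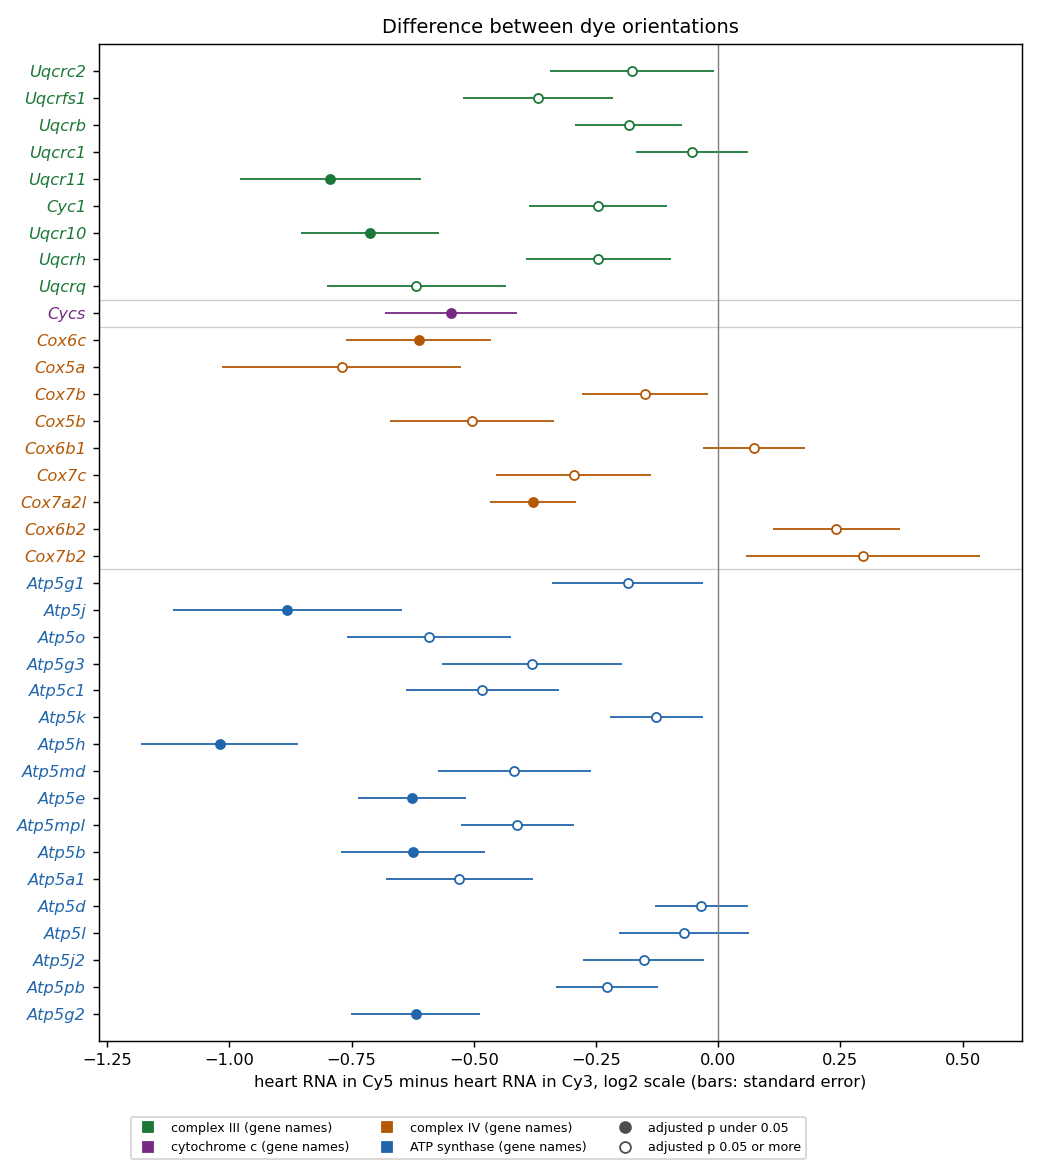
Difference between arrays with heart RNA in Cy5 and in Cy3 on the log2 scale (x axis) for each gene (y axis, coloured by complex), with bars for the standard error. Filled points passed at an adjusted p under 0.05 in limma. The 10 filled points all lie left of 0.

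Other genes of the same pathway, from 8 lists of subunits, assembly factors and carriers, gave 0 calls among 48 measured genes in either direction, and 0 had an unadjusted p under 0.05. Of these, 34 lay below WT, with a median of -0.08. Within each dye orientation, 22 of the 48 lay below with heart RNA in Cy3 (median 0.01) and 40 in Cy5 (median -0.09). For the 42 measured complex I subunits with names starting Ndufa, Ndufb, Ndufc, Ndufs or Ndufv, without Ndufa4, 32 lay below WT, with a median of -0.07 and 0 calls. In Cy3 alone 26 of them lay below, and in Cy5 alone 34. The 4 paralogous complex IV genes left out of the rule all lay below, with a median of -0.22. Among them the muscle form Cox6a2 averaged 5.26 over the reference and the general form Cox6a1 -1.05, and their differences were -0.25 ± 0.17 and -0.26 ± 0.19 (SE, limma adjusted p = 0.942 for each). The average of Cox6a1 joined separate levels, -0.585 to 0.425 with heart RNA in Cy3 and -2.318 to -1.22 in Cy5. Its dye term was -1.83 (limma adjusted p = 0.0012).

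The remaining lists were as undecided. Of 4 complex II genes 2 lay below WT, the lowest p belonging to the iron-sulfur subunit Sdhb (-0.28 ± 0.16, SE). Of 6 assembly factors of complex III 2 lay below, and of 16 measured assembly factors of complex IV 9 did. These counts changed with dye: 0 in Cy3 and 5 in Cy5 for complex III factors, 4 and 16 for complex IV factors. The lowest p belonged to Lyrm7 (-0.13 ± 0.15, SE) in the former and to Cox20 (0.10 ± 0.09), which lay above WT, in the latter. All 5 assembly or inhibitor genes of ATP synthase lay below, among them Tmem70, an assembly factor (-0.21 ± 0.11, limma adjusted p = 0.935). All 6 measured carriers and porins lay below, among them Slc25a4, the ADP/ATP carrier of heart muscle (-0.28 ± 0.18, limma adjusted p = 0.942). Other complex IV subunits (4 of 5 below) and relatives of cytochrome c (2 of 2) had medians of -0.02 and -0.09. Their genes of lowest p were Cox8b (-0.16 ± 0.18, SE) and Hccs (-0.09 ± 0.11).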

How the data were processed

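Total RNA with spike-in controls was labelled with Cy3 or Cy5 and hybridised against the reference, with dyes swapped between animals, per the labels' protocols. The deposited values are log2 ratios (base taken as 2) of 41174 probes on 12 arrays, already centred (array medians -0.029 to 0.068) and turned to heart over reference. What the authors did for background correction, normalization and filtering is not given in the sources used here. Scanner intensities were not used here, so no signal over background is known. No value column was left unused.

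The platform annotation gave 31700 probes 1 symbol, 47 several and 9427 none. All 36 member symbols were the same in RefSeq. Probes were kept if each genotype had at least 2 values with heart RNA in Cy3 and 2 in Cy5 (36826, leaving out 4348). A gene's probes were joined by a model with 1 effect per probe and 1 per array, of which the array effect was used, giving 25821 features. Differences were fitted with limma 3.58.1 (R 4.3.3; lmFit, eBayes, genotype and dye), two-sided. Missing values were not imputed, so genes of 5 hearts in a group were fitted on those. Tables and plots used Python 3.11.15, pandas 2.3.3 and matplotlib 3.10.9. The script was tested on simulated data. No pseudocount was needed.

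Values in full were given for the 3 members of smallest p in complex III with cytochrome c, in complex IV and in ATP synthase, for isoform sets, for the highest and lowest ratio of each complex, and for members whose probes differ in sign. Of pathway lists the gene of smallest p was named. Cox6a1 was chosen after its values were seen, as were the letter forms of the motifs and the probes shown singly. The members and lists were chosen with earlier results of these data known. Same-numbered replicates did not deviate together (r from -0.206 to 0.045 over 8609 features), and the labels give them nothing to share, so they were not paired. P-values measure the spread between these hearts. Proteins were not used here.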

Additional observations from a re-analysis of the deposited data

Results flagged for a closer look

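Of 72 groups of 5 or 6 arrays, 1 per gene and genotype, 2 held an array far from the others. Chance alone marks about 5% of such groups. For Cox7b2, WT replicate 5 stood at 1.00 (1.003), with the other 4 WT arrays at -0.35 to -0.10. The gap took 0.821 of the group's range. WT replicate 5 was also the array on which the members were highest as a set. For Atp5j2, KO replicate 1 stood at 1.85 (1.851), with the other 4 KO arrays at 1.46 to 1.49. On this array the clone probe of Atp5j2 was the highest of its 10 values (0.73), and the transcript probe read 2.97, within its range of 2.64 to 3.58. What set these arrays apart was not tested.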

How the results depend on the processing

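In all settings 0 members passed between the genotypes. The change of the difference with dye was not refitted without the dye term, with the replicate block, within 1 dye or without the 5 arrays highest in Myl4 and Sln; in the settings where it was fitted 0 members passed. The median difference by complex moved by less than the SD between arrays in every setting. That SD, 0.15 to 0.24 by complex, was larger than the median differences themselves, so the comparison does not show that they were stable. The 1 feature that passed among all features became 2 with quantile normalization, 4 among features with values on all 12 arrays (which keeps 10 members), 2 with heart RNA in Cy3 alone, 0 in Cy5 alone and 2 without WT replicate 2 and KO replicates 1 and 6. Leaving out 1 array at a time gave 1 to 3 features, with 3 without KO replicate 6. The share of members below WT was 94.4% and ran from 61.1% (without WT replicate 5) to 100% (without KO replicate 2). With the replicate block the median difference was -0.0997, with 91.7% of members below, and no call changed. The median was -0.0522 without the dye term, -0.0454 with array weights, -0.0466 when the pair of arrays with most empty cells was left out and -0.184 with quantile normalization, which moved the median of all features by -0.00257. The 10 members with a dye term became 3 with quantile normalization, 6 of 10 with values on all 12 arrays, 3 without that pair and 18 with array weights. Leaving out 1 array at a time gave 2 (WT replicate 1) to 15 (KO replicate 1). These settings for the dye term, transcript probes alone and the 5 arrays left out were chosen after seeing the data. Some settings use fewer arrays or features. Otherwise the cause of a change was not tested.

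Precision is limited by 6 hearts per genotype and by empty cells, which removed 19 of 51 member probes on 2 of the arrays.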
